A study of Mus musculus with 6 samples.

Results

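The genes described here are 26 integrin chains and 8 adaptors, 34 in all. They were taken by name from the gene families, and 32 of them had a value among the 22180 genes measured. Itga10 had no probe listed here, and Ilk, the integrin-linked kinase, lay only on probes that carry a second gene symbol, so neither was analysed here. Where a gene had several probes, the brightest on average was used. Integrins are cell surface receptors made of an alpha and a beta chain. They hold cells to matrix proteins and to other cells, and they bind firmly only after talin and a kindlin have attached to the tail of the beta chain inside the cell. Vinculin, paxillin and integrin-linked kinase then tie the receptor to actin. Blood cells carry their own chains, built around the beta-2 and beta-7 subunits, and their own kindlin, kindlin-3, while endothelium rests on its basement membrane through beta-1 partners and uses kindlin-2.

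The arrays hold bone marrow cells of the LSK phenotype, cells without mature lineage markers that carry Sca-1 and Kit. YFP-positive LSK cells (3 arrays) and YFP-negative LSK cells (3 arrays) were sorted from the same kind of mouse, C57Bl6 animals with the tamoxifen-inducible transgene Tg(Cdh5-Cre/ERT2) and a Rosa 26 YFP reporter, at postnatal day 27. All groups had received tamoxifen on days 1, 2 and 3 after birth. Cre is driven by the promoter of Cdh5, the VE-cadherin gene of endothelium, so YFP marks cells in which that promoter was active at induction or in an ancestor. The mark does not record whether the promoter is still active. The labels do not say whether replicates came from separate or pooled animals, so the p-values rest on a spread between samples that may be technical only. The comparison asks how LSK cells with the endothelial mark differ from those without it.

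Some facts of the whole series touch the integrin results. Of 19 endothelial marker genes, 18 were higher in YFP-positive cells, with a log2 summed level of 13.6 to 14.1 in YFP-positive arrays and 9.10 to 10.1 in YFP-negative arrays. Cdh5 itself, part of this list, measured 11.6, 11.8 and 11.3 in YFP-positive arrays, against 5.40, 4.55 and 3.71 in YFP-negative arrays (limma adjusted p = 0.00086). Of 15 general leukocyte markers all lay below 0 and 1 passed, Vav1, and their median stood at -2.15 and -2.30 in YFP-positive replicates 1 and 2 but at 0.17 in YFP-positive replicate 3, each relative to the YFP-negative mean. The same measure over 14 neutrophil markers was highest in YFP-positive replicate 3 (1.66) and YFP-negative replicate 3 (1.59). Of 11 lymphoid markers 3 were lower, namely Dntt, Il7r and Cd79b, with differences of -2.69, -2.33 and -2.0, and 5 had an unadjusted p under 0.05. The log2 summed level of that list was 8.31 to 9.42 in YFP-positive arrays, against 11.1 to 11.3 in YFP-negative arrays. Of 8 measured genes of blood stem and progenitor cells 6 were lower. They were Cd34, Flt3, Cd48, Meis1, Hlf and Kit, the only one of them that defines the LSK phenotype, at 6.56 to 7.06 in YFP-positive arrays, against 7.57 to 7.96 in YFP-negative arrays. The lymphoid and progenitor genes that fell did so in the same samples as Itga4 and Fermt3, and their part in those results was not tested. Ly6a, which encodes Sca-1, had no probe listed here. These are bulk samples, so fewer cells of a type and less RNA per cell cannot be told apart.

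In the main fit YFP-positive LSK cells carried more RNA of 7 integrin chains, all of them matrix receptors, and more of kindlin-2 and vinculin. They carried less RNA of the alpha-4 chain and of kindlin-3. Only Itga1, Itga9 and Fermt2 passed in every alternative fit described below. With the replicate number as a block, neither Itga4 (adjusted p = 0.0893) nor Fermt3 (0.0521) passed. Of the 32 genes, 9 were higher with limma (28.1%), against 2.88% of all 22180 genes, and 2 were lower (6.25%), against 1.96% of all genes. The other 21 did not pass. In either direction 4.84% of all genes passed in this fit on all 6 arrays. Without YFP-positive replicate 3 there were 8 members higher and 3 lower, against 3.01% and 2.33% of all genes. Without both replicate 3 arrays there were 3 higher and 2 lower, against 1.98% and 1.62% of all genes. Members that sit above the median of all probe values in some population numbered 24, and among all genes above it 4.75% were higher and 3.21% lower. All 3 YFP-positive arrays lay above all YFP-negative arrays for 11 members (34.4%, against 10.8% of all genes) and below them for 3 members (9.38%, against 11.9%). The median difference was 0.10 over the 32 members and -0.01 over all genes. The plot of levels by array shows every measured gene.

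**Figure D1:**
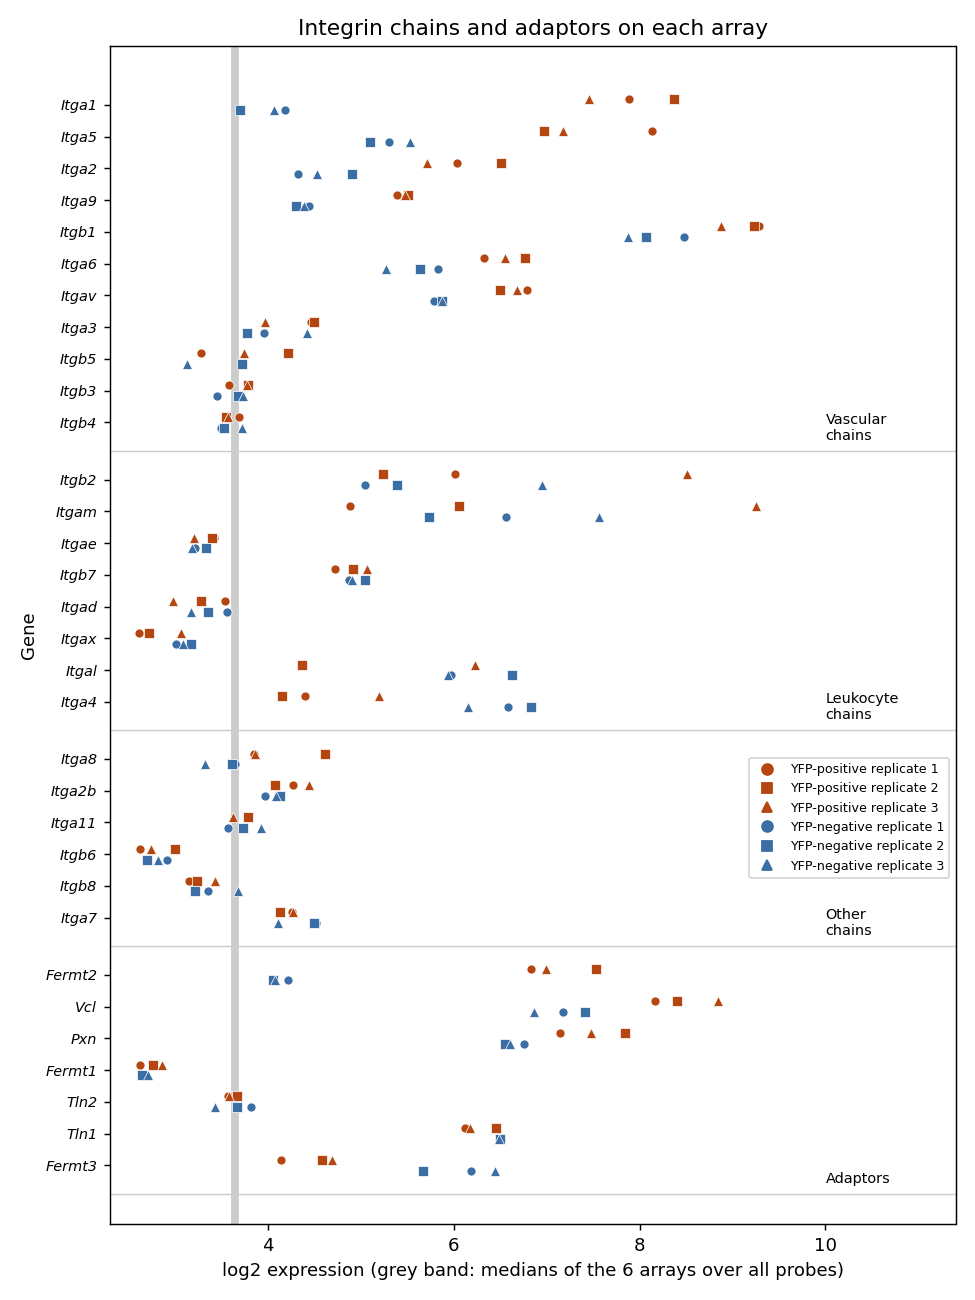
Log2 expression (x axis) of the 32 measured integrin and adaptor genes (y axis) on each array, with YFP-positive arrays above YFP-negative arrays in each row, a marker shape per replicate number and a grey band for the array medians of 3.62 to 3.68. Itga1 and Fermt2 show the widest gaps with YFP-positive arrays to the right, Itga4 and Fermt3 lie the other way round, and the triangles of replicate 3 stand apart for Itgb2 and Itgam.

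Of 11 measured chains that endothelium and other matrix-bound cells use, 7 were higher, 0 were lower and 4 did not pass, with a median difference of 0.96. Among all genes 2.88% were higher and 1.96% lower. All 11 differences were above 0 in the main fit, as were those of 10807 of all 22180 genes. Those of Itgb4 and Itgb5, both near the array medians, reached -0.016 and -0.014 when 1 array was left out. The 7 were Itgb1, the beta chain shared by the collagen, laminin and fibronectin receptors, and 6 alpha chains, Itga1, Itga2, Itga5, Itga6, Itga9 and Itgav, each of which can pair with it. The endothelial markers moved with these chains, as given above. Their part in the result was not tested.

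Itga1, the alpha chain of a collagen receptor that prefers the collagen of basement membranes, had the largest difference among the 32 members. Its log2 levels were 7.89, 8.37 and 7.46 in YFP-positive arrays, against 4.18, 3.70 and 4.07 in YFP-negative arrays. The YFP-negative values lie close to the array medians, where a level cannot be told from background, so the fold between populations is not determined. The measured values differed by 3.92 ± 0.26 (SE), a ratio of 15.2 (limma adjusted p = 0.00125). Itga2, the alpha chain of another collagen receptor, known from platelets, measured 6.03, 6.51 and 5.71 in YFP-positive arrays, against 4.33, 4.91 and 4.53 in YFP-negative arrays. The groups did not overlap, and the gene was 2.82-fold higher (1.5 ± 0.25, adjusted p = 0.0291). In the RefSeq gene table Itga1 and Itga2 start next to each other on chromosome 13, with 0 other protein-coding genes starting between them.

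Itga5 encodes the alpha chain of the main fibronectin receptor. Its levels were 8.13, 6.97 and 7.17 in YFP-positive arrays, against 5.31, 5.10 and 5.53 in YFP-negative arrays. It was 4.32-fold higher (2.11 ± 0.32, adjusted p = 0.0208), with YFP-positive replicate 1 well above the other arrays of its population. Itga9, whose receptor binds tenascin and VCAM-1, had 5.39, 5.51 and 5.47 in YFP-positive arrays, against 4.44, 4.30 and 4.39 in YFP-negative arrays. The arrays of each population lay within 0.14 of each other, and the gene was 2.11-fold higher (1.08 ± 0.10, adjusted p = 0.00434). Its YFP-negative values lie a little above the array medians, so this fold carries the limit given for Itga1. 

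Itgb1 was already high without the mark. It measured 9.29, 9.23 and 8.88 in YFP-positive arrays, against 8.48, 8.07 and 7.88 in YFP-negative arrays, a 1.99-fold difference (0.99 ± 0.20, adjusted p = 0.0497). Itga6, a laminin receptor chain also used as a stem cell surface marker, had 6.32, 6.76 and 6.55 in YFP-positive arrays, against 5.83, 5.63 and 5.27 in YFP-negative arrays. It was 1.95-fold higher (0.96 ± 0.19, adjusted p = 0.0479). Itgav, the alpha chain of vitronectin receptors, had 6.79, 6.50 and 6.68 in YFP-positive arrays, against 5.79, 5.87 and 5.87 in YFP-negative arrays. It was 1.75-fold higher (0.81 ± 0.12, adjusted p = 0.0183). A second probe of Itgav was dim, at 3.51, 3.37 and 2.58 in YFP-positive arrays, against 2.83, 2.81 and 2.79 in YFP-negative arrays, and with the mean of both probes Itgav no longer passed.

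The beta chains that pair with the alpha-v chain in vitronectin receptors did not pass. Itgb3 averaged 3.72 ± 0.11 in YFP-positive arrays, against 3.62 ± 0.15 in YFP-negative arrays, and Itgb5 averaged 3.75 ± 0.47 in YFP-positive arrays, against 3.53 ± 0.34 in YFP-negative arrays (n = 3, SD). Their adjusted p-values were 0.801 and 0.789, and the 95% interval of the difference ran from -0.22 to 0.40 for Itgb3 and from -0.47 to 0.91 for Itgb5. Both lay near the array medians. Itgb4, the partner of the alpha-6 chain in epithelial hemidesmosomes, was as dim (3.61 ± 0.08 in YFP-positive arrays, against 3.58 ± 0.12 in YFP-negative arrays, adjusted p = 0.944). Itga3, another laminin receptor chain, had 4.31 ± 0.29 in YFP-positive arrays, against 4.05 ± 0.33 in YFP-negative arrays (adjusted p = 0.669).

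Among the 7 chains that rose, Itga1 and Itga9 passed whichever single array was dropped, in 6 of 6 such fits. Itga6 passed in 0 of them (highest adjusted p = 0.135), and it also missed the threshold with array weights (0.0501). With an intensity trend and robust moderation Itga6, Itgav and Itgb1 lost their calls (adjusted p = 0.0947, 0.101 and 0.0712). That left 6 members higher, against 2.71% of all genes. Itga2 and Itgb1 each passed only without YFP-positive replicate 3 (highest 0.101 and 0.156). Itga5 lost its call without each YFP-negative array (highest 0.0854), and Itgav did so without any 1 of the YFP-negative arrays or YFP-positive replicate 1 (highest 0.0763).

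**Figure D2:**
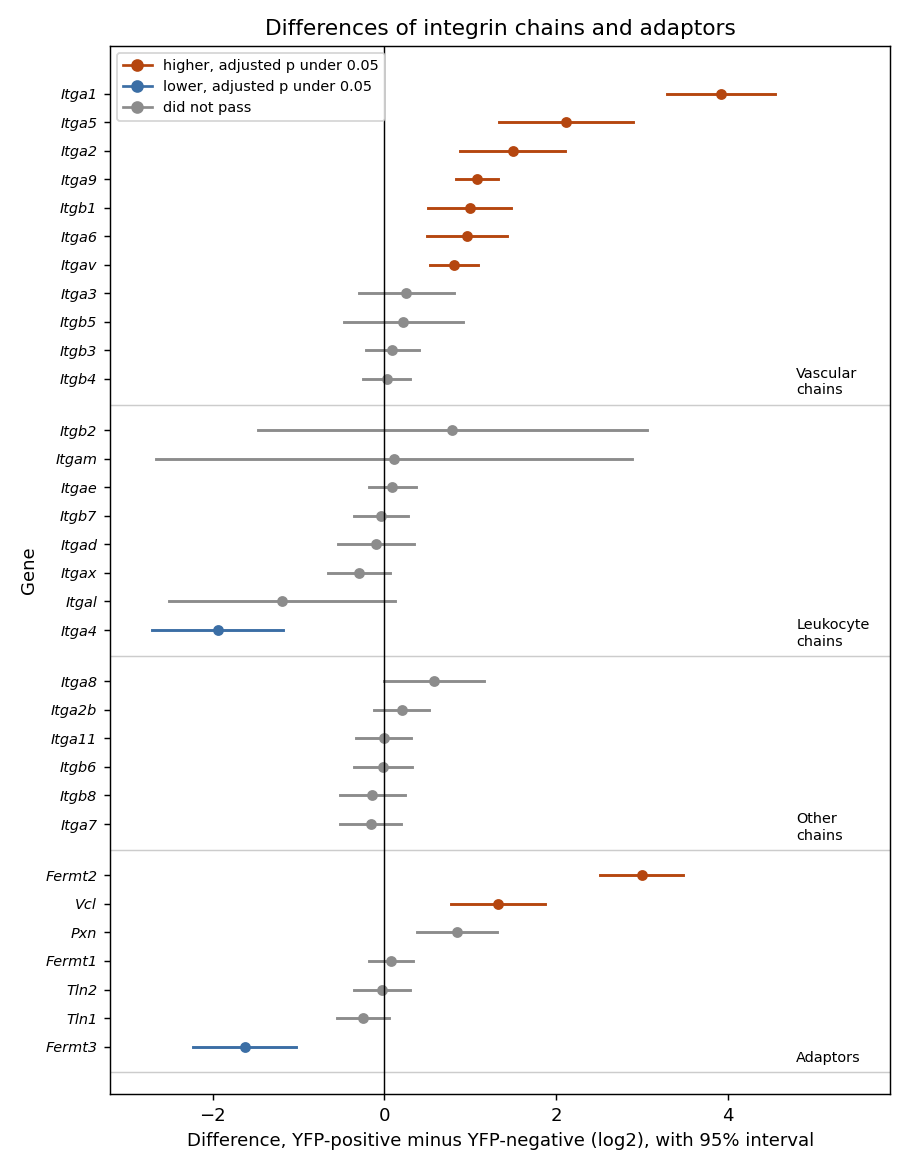
Difference in log2 expression, YFP-positive minus YFP-negative (x axis), with its 95% interval from limma for each measured gene (y axis), grouped by role and coloured by call. The 7 vascular chains that passed run from 0.81 for Itgav to 3.92 for Itga1, and the widest intervals belong to Itgam and Itgb2.

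Of 8 measured leukocyte chains 1 was lower, 0 were higher and 7 did not pass, against 1.96% lower and 2.88% higher among all genes. Their median difference was -0.07. The chain that fell was Itga4, which pairs with Itgb1 or Itgb7, binds VCAM-1 and fibronectin, and holds blood progenitors in the marrow. Its levels were 4.4, 4.15 and 5.20 in YFP-positive arrays, against 6.59, 6.83 and 6.16 in YFP-negative arrays. Every YFP-positive array lay below every YFP-negative array, including YFP-positive replicate 3. The difference was -1.94 ± 0.31, or 3.84-fold lower in the measured values (adjusted p = 0.0253). YFP-positive replicates 1 and 2 lie a little above the array medians, so this fold carries the limit given for Itga1. The call held with replicate 3 of either population dropped and was lost when any other array was (highest adjusted p = 0.0979). A further probe, shared by Itga4 and Cerkl and so not used, was dim. It measured 3.485, 3.63 and 3.47 in YFP-positive arrays, against 3.91, 3.61 and 3.59 in YFP-negative arrays, and the groups overlapped.

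Itga4 and Itga5 encode alternative alpha chains of fibronectin receptors with a shared beta partner. The within-array difference Itga5 minus Itga4 was 3.73, 2.82 and 1.98 on the log2 scale in YFP-positive arrays, against -1.28, -1.73 and -0.62 in YFP-negative arrays. Levels of different probes cannot be compared, so only the shift between populations, 4.05, can be read. Its size carries the limit given for the fold of Itga4. This pair and 2 further pairs named below were chosen after their values were seen, so no test is used as support for the shifts. An exact two-sided permutation over the arrays gave p = 0.1 for each of the 3 pairs. That is the lowest value possible with 3 against 3 arrays, so it cannot decide.

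Itgal, the alpha chain of LFA-1, with which leukocytes bind ICAMs, split the YFP-positive arrays. It measured 4.36, 4.37 and 6.23 in YFP-positive arrays, against 5.97, 6.63 and 5.94 in YFP-negative arrays. YFP-positive replicates 1 and 2 were low and replicate 3 lay within the YFP-negative range. The difference of -1.19 ± 0.54 did not pass (adjusted p = 0.342). Without YFP-positive replicate 3 its measured values were 3.51-fold lower (-1.81, adjusted p = 0.0206), a fold with the limit given for Itga1. Itgal passed in only this 1 of the 6 fits with a single array dropped (highest adjusted p = 0.61). The array was singled out by these same values, so the p-value is no separate support. The log2 summed level of the 15 leukocyte markers was 11.2, 11.5 and 13.1 in YFP-positive arrays, against 12.9, 12.9 and 12.9 in YFP-negative arrays, and its part in the result was not tested.

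Itgb2, the beta chain of all leukocyte CD11/CD18 receptors, and Itgam, the alpha chain of Mac-1 on neutrophils and monocytes, followed replicate 3 in both populations. Itgam, named after its values were seen, measured 4.89, 6.06 and 9.25 in YFP-positive arrays, against 6.56, 5.73 and 7.56 in YFP-negative arrays. Itgb2 measured 6.01, 5.24 and 8.51 in YFP-positive arrays, against 5.05, 5.39 and 6.95 in YFP-negative arrays. In each population replicate 3 was the highest, and the groups overlapped. Neither gene passed (adjusted p = 0.979 for Itgam and 0.763 for Itgb2), and the 95% intervals of the difference, -2.67 to 2.89 and -1.48 to 3.07, are the widest among the members. Without YFP-positive replicate 3 the difference turned to -1.15 for Itgam and -0.17 for Itgb2 and still did not pass (adjusted p = 0.449 and 0.939). Of 14 neutrophil markers 0 passed limma's test and 2 had an unadjusted p under 0.05, both with lower values. The log2 summed level of all 14 was 13.5, 13.8 and 14.7 in YFP-positive arrays, against 12.5, 13.1 and 14.4 in YFP-negative arrays. Ltf, the granule protein lactoferrin, has the largest difference of the 14 (2.12) and was picked after its values were seen. It stood at 8.94, 9.56 and 11.3 in YFP-positive arrays, against 5.77, 7.36 and 10.3 in YFP-negative arrays. For Ltf replicate 3 was again the highest in each population. Of the 14 markers 10 lay above 0 and 4 below, namely Mpo, Prtn3, Ctsg and Csf3r (-1.10, -0.61, -2.10 and -1.38). For Mpo, Prtn3 and Ctsg replicate 3 was not the highest YFP-negative array. The part of these markers in the result was not tested.

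The other leukocyte chains did not pass. Itgb7, the beta partner of the gut-homing alpha-4 chain, was 4.90 ± 0.17 in YFP-positive arrays, against 4.94 ± 0.10 in YFP-negative arrays (n = 3, SD), and the interval of its difference, -0.36 to 0.28, lies within -1 to 1, although its adjusted p of 0.925 alone would not show that the populations were alike. Itgad, Itgae and Itgax, the chains of macrophage, intraepithelial lymphocyte and dendritic cell receptors, averaged 2.80 to 3.34 in YFP-positive arrays, against 3.09 to 3.36 in YFP-negative arrays. These lie below the array medians, and 0 of the 3 passed limma's test (unadjusted p of 0.095 to 0.613). Itgam, Itgax and Itgad are neighbours on chromosome 7 in the RefSeq table, with 0 protein-coding genes starting between them, and of these only Itgam was above the array medians.

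**Figure D3:**
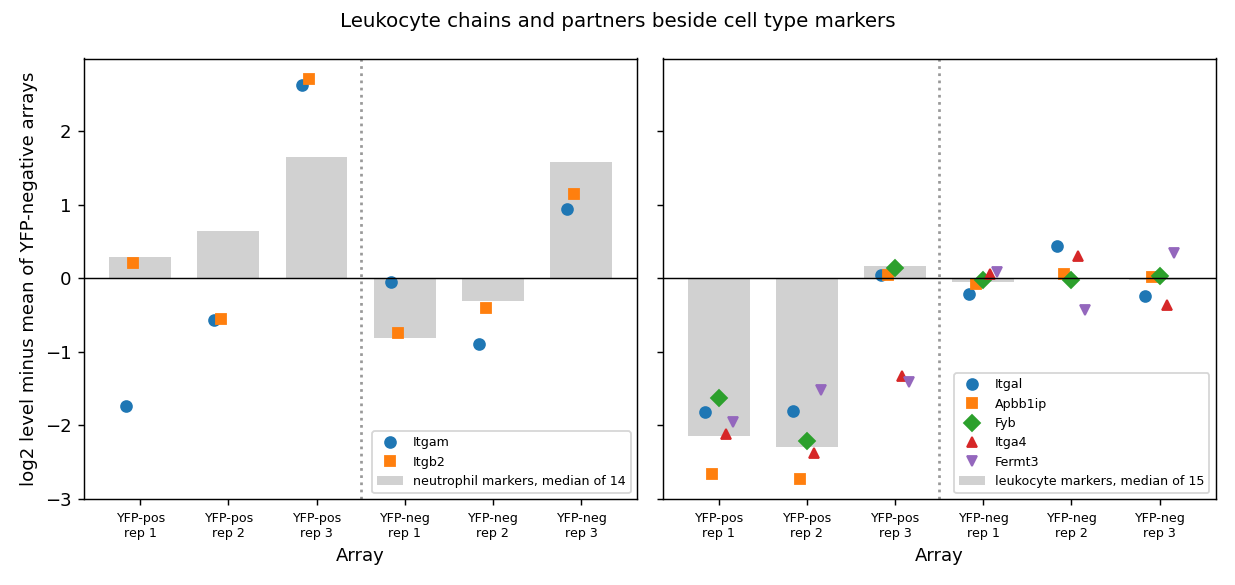
Log2 level minus the mean of the YFP-negative arrays (y axis) for each array (x axis), as points for named genes and grey bars for the median of a marker list. At the left, Itgam and Itgb2 peak in YFP-positive replicate 3 at 2.63 and 2.72, where the neutrophil markers have 1.66; at the right, Itgal, Apbb1ip and Fyb return to the YFP-negative level in YFP-positive replicate 3 while Itga4 and Fermt3 stay below it.

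Of the 6 other chains measured 0 passed limma's test (unadjusted p of 0.0507 to 0.948, and 0 calls in the fit without moderation). Itga2b, the alpha chain of the platelet fibrinogen receptor, averaged 4.27 ± 0.18 in YFP-positive arrays, against 4.06 ± 0.09 in YFP-negative arrays (adjusted p = 0.535). Of 9 measured megakaryocyte markers, this gene included, 0 passed limma's test and 3 had an unadjusted p under 0.05. Itga8, a chain of mesenchymal and smooth muscle cells, lay higher in all YFP-positive arrays, at 3.85, 4.61 and 3.86, against 3.65, 3.61 and 3.33 in YFP-negative arrays, and did not pass (adjusted p = 0.293). Itga7, Itga11, Itgb6 and Itgb8, chains known outside blood, differed by -0.16 to -0.01.

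The kindlin paralogs moved in opposite directions. Of 7 measured adaptors 2 were higher, 1 was lower and 4 did not pass, against 2.88% higher and 1.96% lower among all genes. Fermt2, which encodes kindlin-2 of endothelium and most tissues, measured 6.83, 7.53 and 6.99 in YFP-positive arrays, against 4.21, 4.06 and 4.08 in YFP-negative arrays. Its measured values were 8.0-fold higher (3.00 ± 0.20, adjusted p = 0.00125). The YFP-negative arrays lay within 0.16 of each other, a little above the array medians, so this fold carries the limit given for Itga1. Fermt3, which encodes kindlin-3 of blood cells and is needed there for integrin activation, went the other way. It measured 4.14, 4.58 and 4.69 in YFP-positive arrays, against 6.18, 5.67 and 6.44 in YFP-negative arrays. Its measured values were 3.09-fold lower (-1.63 ± 0.25, adjusted p = 0.0205), again with YFP-positive replicate 3 below every YFP-negative array. The YFP-positive values of Fermt3 lie a little above the array medians, so this fold carries the same limit. Fermt1, kindlin-1 of epithelium, was at 2.75 ± 0.11 in YFP-positive arrays, against 2.67 ± 0.03 in YFP-negative arrays, far below the array medians.

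The within-array difference Fermt2 minus Fermt3 was 2.69, 2.95 and 2.3 in YFP-positive arrays, against -1.97, -1.62 and -2.36 in YFP-negative arrays. It shifted by 4.63 on the log2 scale. Fermt2 in YFP-negative arrays and Fermt3 in YFP-positive arrays lie a little above the array medians, so the size of this shift is not determined. Fermt2 passed in 6 of 6 single-array deletions (highest adjusted p = 0.0106). Fermt3 kept its call only when YFP-positive replicate 3 or YFP-negative replicate 2 was dropped (highest 0.085). 

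The start regions of these paralogs, which moved in opposite directions, differ in composition. Each sequence below holds the 250 bases before the start of the gene, from RefSeq on GRCm38.p6, both on the minus strand and printed 5′ to 3′ in the direction of the gene. The Fermt2 stretch is chr14:45530066-45530315 and the Fermt3 stretch chr19:7019470-7019719. Capitals mark GC boxes (GGGCGG on either strand) in the first and the core form of RUNX sites (TGTGGT on either strand) in the second.
Fermt2: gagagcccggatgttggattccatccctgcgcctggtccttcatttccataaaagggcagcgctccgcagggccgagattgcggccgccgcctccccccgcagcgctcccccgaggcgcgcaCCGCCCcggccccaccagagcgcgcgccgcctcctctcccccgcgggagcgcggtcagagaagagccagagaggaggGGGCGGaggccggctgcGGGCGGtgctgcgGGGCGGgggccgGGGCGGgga
Fermt3: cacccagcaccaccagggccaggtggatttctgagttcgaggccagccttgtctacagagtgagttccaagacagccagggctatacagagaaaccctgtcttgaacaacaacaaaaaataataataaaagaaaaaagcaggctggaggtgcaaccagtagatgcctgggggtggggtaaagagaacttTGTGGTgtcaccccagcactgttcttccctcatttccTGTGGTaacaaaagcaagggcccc
The Fermt2 region has 76.0% G and C, 31 CpG pairs and 5 GC boxes. The Fermt3 region has 50% G and C, 1 CpG pair, 0 GC boxes and 2 RUNX forms. The median of all promoters is 52.4% G and C and 6 CpG pairs.

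Besides the GC box and the RUNX form, an ETS form (GGAAGT) and the TATA box (TATAAA) were searched on both strands of these 250 bases. Neither is present in the stretches printed, and 0 of the matches overlap. Across all 32851 promoters the GC box occurs in 32.7%, the RUNX form in 14%, the ETS form in 19.7% and the TATA box in 12.4%. The promoter table holds 22 of the members. Of these, 9 hold the GC box, 3 the RUNX form, 8 the ETS form and 0 the TATA box in some entry. The 3 with the RUNX form are Itga3, Itga4 and Fermt3, of which Itga3 and Itga4 also hold the GC box. These are matches of letters, not sites shown to be bound, and they were not related to the calls by any test.

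Vcl, which encodes vinculin, a linker between talin and actin, was the other adaptor that rose. It measured 8.16, 8.41 and 8.84 in YFP-positive arrays, against 7.17, 7.41 and 6.86 in YFP-negative arrays, and was 2.5-fold higher (1.32 ± 0.22, adjusted p = 0.0301). The call was lost when YFP-positive replicate 2 or any YFP-negative array was dropped (highest 0.103). Pxn, the scaffold paxillin, had 7.15, 7.84 and 7.48 in YFP-positive arrays, against 6.76, 6.55 and 6.61 in YFP-negative arrays. The groups did not overlap, but the 0.85 ± 0.19 difference did not pass (adjusted p = 0.0709). Tln1, the talin of blood and endothelium alike, differed little, at 6.12, 6.45 and 6.18 in YFP-positive arrays, against 6.51, 6.50 and 6.49 in YFP-negative arrays. Every YFP-positive array lay below every YFP-negative array. Its difference of -0.25 did not pass (adjusted p = 0.393), and the interval of the difference was -0.55 to 0.05. Tln2 lay near the array medians in both populations (3.61 ± 0.05 in YFP-positive arrays, against 3.64 ± 0.20 in YFP-negative arrays).

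Of the 21 members that did not pass, 16 had a 95% interval of the difference between -1 and 1. The other 5 were Itgb2, Itgam, Itgal, Itga8 and Pxn. Among the 32 members 8 were at or below the median of all probe values in both populations, namely Itgad, Itgae, Itgax, Itgb4, Itgb6, Itgb8, Fermt1 and Tln2, levels that cannot be told from background.

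The parvins, which also bind near the integrin tail, moved in opposite directions in the main fit too. Of 28 other measured genes of integrin activation and adhesion, 7 were higher, 1 was lower and 20 did not pass. Among all genes 2.88% were higher and 1.96% lower. The median difference of this list was 0.06. Parva and Parvb, the parvins of the integrin-linked kinase complex outside blood, were higher, with ratios of the measured values of 10.4 and 6.45 (adjusted p = 0.00253 and 0.0199). Parva lay at 3.44, 3.55 and 3.60 in YFP-negative arrays, below the array medians, so its fold is not determined. Parvg, the parvin of blood cells, was 3.07-fold lower (-1.62, adjusted p = 0.0425). It measured 6.05, 6.27 and 6.78 in YFP-positive arrays, against 8.48, 7.99 and 7.48 in YFP-negative arrays. The within-array difference Parva minus Parvg shifted by 5.0 on the log2 scale, with the same limit. With single arrays dropped, Parvg and Parvb each passed in 2 of 6 fits (highest adjusted p = 0.133 and 0.0818), and Parva in all 6. With the replicate number as a block Parva passed, while Parvg (adjusted p = 0.121) and Parvb (0.0694) did not.

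The other genes of this list that rose join the receptor to actin or signal from it. Actn1, the alpha-actinin of stress fibres, was 9.03-fold higher (3.17, adjusted p = 0.0017), at 8.49, 8.72 and 9.25 in YFP-positive arrays, against 5.81, 5.38 and 5.74 in YFP-negative arrays. Bcar1, the docking protein p130Cas, was 6.46-fold higher (adjusted p = 0.00227), and Tns2, a tensin, 4.59-fold higher (adjusted p = 0.019). Bcar1 lay at 4.22 to 4.40 in YFP-negative arrays, a little above the array medians, so its fold carries the limit given for Itga1. Tgfb1i1, the paxillin relative Hic-5, was higher too (adjusted p = 0.0117), but at 3.56 to 3.62 in YFP-negative arrays it could not be told from background there, and its fold is not determined. Rsu1, a subunit of the parvin and integrin-linked kinase complex, was 1.87-fold higher (adjusted p = 0.0204). With single arrays dropped, Actn1 and Bcar1 passed in 6 of 6 fits, Tgfb1i1 in 4, Rsu1 in 2 and Tns2 in 1 (highest adjusted p = 0.0776 for Tns2).

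**Figure D4:**
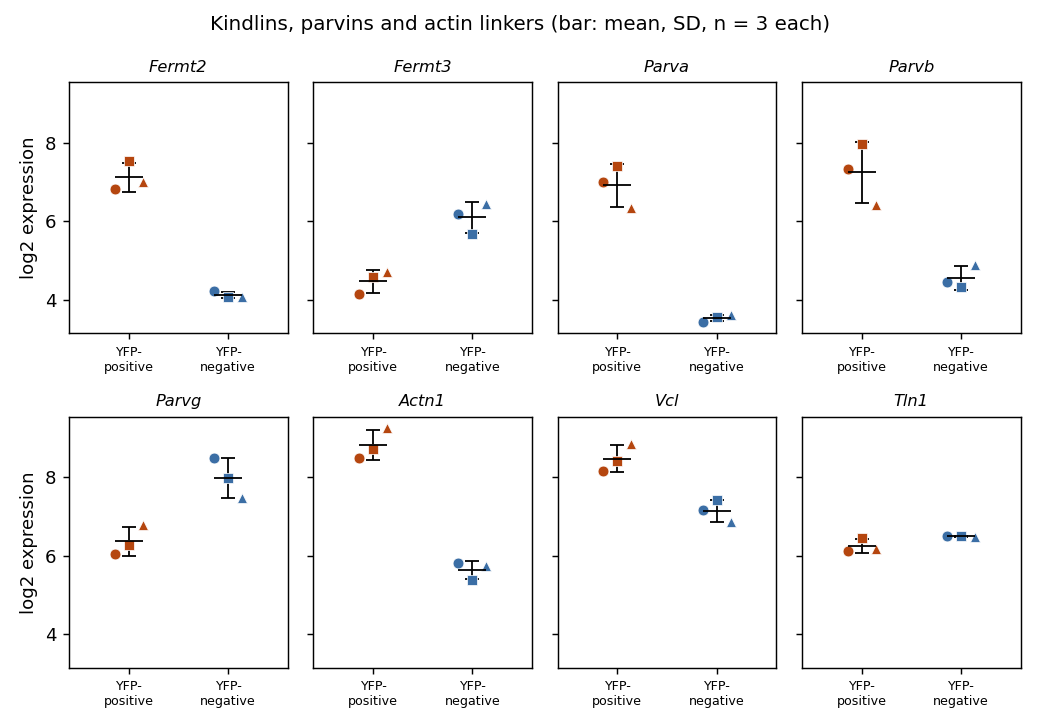
Log2 expression (y axis) of kindlin, parvin and actin linker genes in YFP-positive and YFP-negative arrays (x axis), as points for the 3 replicates with the mean and SD as a bar. Fermt2, Parva, Parvb, Actn1 and Vcl lie higher in YFP-positive arrays, Fermt3 and Parvg lie lower, and Tln1 differs by -0.25.

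Some activators of leukocyte integrins followed the arrays as Itgal did, and they are named after their values were seen. Apbb1ip, which encodes RIAM, the protein that brings talin to the membrane under Rap1, measured 5.39, 5.32 and 8.09 in YFP-positive arrays, against 7.97, 8.12 and 8.06 in YFP-negative arrays. Fyb, which encodes the adaptor ADAP, measured 5.95, 5.36 and 7.72 in YFP-positive arrays, against 7.57, 7.57 and 7.61 in YFP-negative arrays. Both were low in YFP-positive replicates 1 and 2 and at the YFP-negative level in replicate 3, and neither passed (adjusted p = 0.299 and 0.358). Without YFP-positive replicate 3 their differences were -2.70 (adjusted p = 0.000832) and -1.92 (adjusted p = 0.00978). Each passed in only this 1 of the 6 fits with a single array dropped (highest adjusted p = 0.556 and 0.616). That array set them apart when they were picked, so these p-values are no separate support. Without it the list had 8 genes higher and 6 lower, against 3.01% and 2.33% of all genes. Ptk2b, the kinase Pyk2, Itgb1bp1, the inhibitor ICAP-1, and Rasgrp2, an activator of Rap1, also passed as lower in that fit (adjusted p = 0.0336, 0.0176 and 0.0392), and Actn4, another alpha-actinin, passed as higher (0.0296). These genes too passed in 1 of the 6 single-array fits each. Ptprc, the pan-leukocyte marker CD45, had the same order, at 6.52, 6.95 and 9.52 in YFP-positive arrays, against 9.33, 9.23 and 9.37 in YFP-negative arrays. Its part in the result was not tested.

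The ligands are read here with the receptors. Of 23 measured ligand genes 5 were higher, 0 were lower and 18 did not pass, against 2.88% higher and 1.96% lower among all genes. Their median difference was 0.78. Vcam1, the counter-receptor of the alpha-4 and alpha-9 chains and a gene of marrow sinusoids and macrophages, measured 10.1, 10.4 and 9.88 in YFP-positive arrays, against 4.06, 4.06 and 4.01 in YFP-negative arrays. Its measured values were 67.2-fold higher (6.07, adjusted p = 4.31e-05), over a YFP-negative level a little above the array medians, in the same samples in which Itga4 was lower and Itga9 higher. Of 12 macrophage markers Vcam1 and Mertk were higher and 10 did not pass. The median difference of that list was 0.01, with 6 genes above 0 and 6 below.

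Of the basement membrane genes Nid1, a nidogen, was 27.9-fold (adjusted p = 0.00125) and Lamc1, the gamma chain of most laminins, 12.6-fold higher (adjusted p = 0.00341). Col4a2, a type IV collagen chain, was 4.18-fold (adjusted p = 0.0242) and Lamb1, a laminin beta chain, 2.07-fold higher (adjusted p = 0.0267), the last over YFP-negative values of 3.68 to 3.94, near the array medians. In YFP-negative arrays Nid1 lay at 4.35 to 4.65 and Col4a2 at 4.40 to 4.49, a little above the array medians. Their folds carry the limit given for Itga1. Vcam1, Nid1 and Lamc1 passed whichever array was dropped, and Col4a2 and Lamb1 in 2 each (highest adjusted p = 0.101 for Lamb1). Col4a1 and Lama4 lay above every YFP-negative array in all YFP-positive arrays and did not pass (differences of 2.25 and 2.53, adjusted p = 0.0845 and 0.0813). Without YFP-positive replicate 3 the list had 8 genes higher, against 3.01% of all genes. Lama4 (adjusted p = 0.000861), Lama5 (0.0166) and Vwf (0.0431) were added, each in only this 1 of the 6 single-array fits. The ligand of LFA-1, Icam1, measured 8.31, 7.01 and 7.37 in YFP-positive arrays, against 6.37, 5.51 and 6.43 in YFP-negative arrays (adjusted p = 0.123). Vtn, the plasma ligand vitronectin, stayed near the array medians in both populations (adjusted p = 0.984). Of 12 stromal markers 0 passed limma's test and 4 had an unadjusted p under 0.05. Of these Lepr, Cxcl12 and Dcn differed by 1.87, 1.82 and 0.48 and Pdgfrb by -0.30, while the median difference of the list was 0.08. The log2 summed level of that list was 7.83 to 8.79 in YFP-positive arrays, against 7.69 to 7.90 in YFP-negative arrays.

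**Figure D5:**
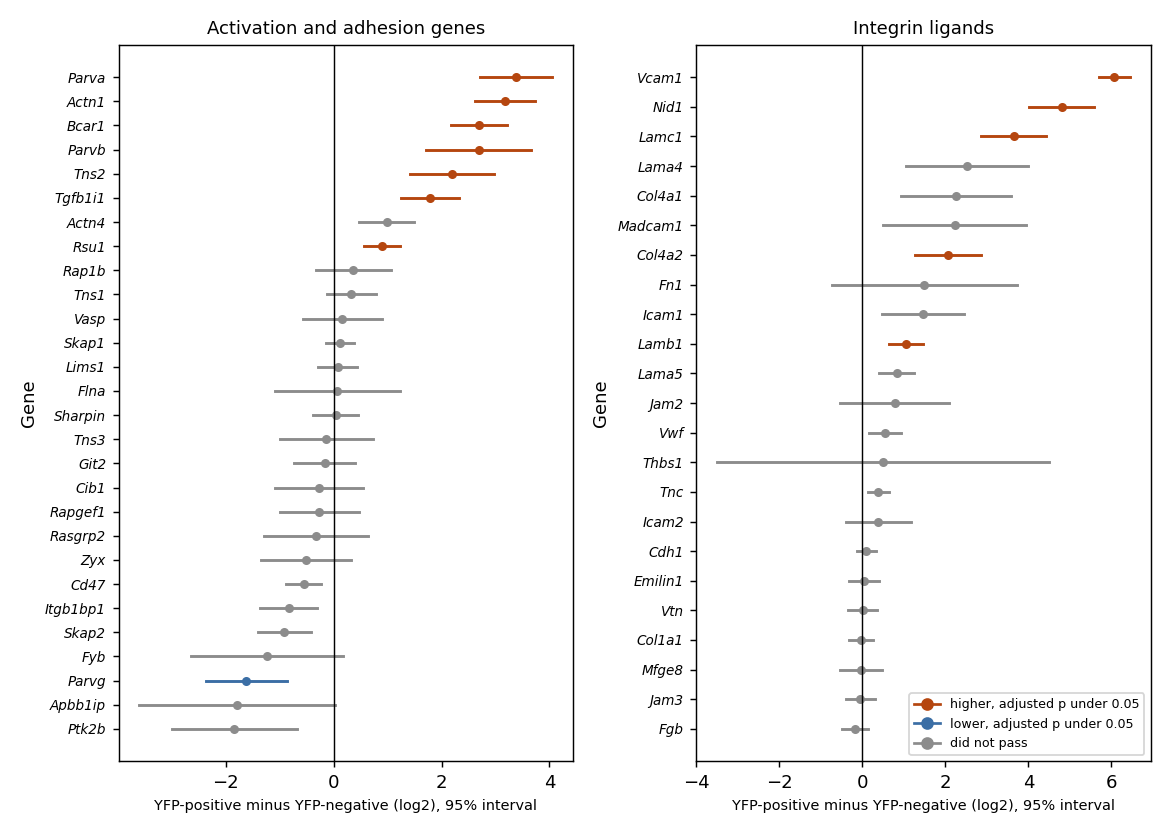
Difference in log2 expression, YFP-positive minus YFP-negative (x axis), with its 95% interval, for 28 activation and adhesion genes at the left and 23 ligand genes at the right (y axis), coloured by call. Parva at 3.38 and Vcam1 at 6.07 lead the panels, and Parvg at -1.62 is the only gene of both lists that passed below 0.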

How the data were processed

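RNA of 3 YFP-positive and 3 YFP-negative LSK samples was amplified from 500 pg with the Ovation Pico V2 system and labelled with biotin, per the labels' protocols. The deposited values are log2 intensities of 41345 probes, made with Partek per the submitters' processing notes. Background correction, normalization, array design and genome build are unstated in the sources used here, and the log2 scale is read from the range of 1.53 to 13.7. No detection calls were used. Array medians were 3.62 to 3.68, and 6 arrays limit the precision. Correlations between arrays were 0.946 to 0.968 within and 0.888 to 0.924 between populations.

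Of the probes, 25335 are listed in the platform annotation, 23521 of them with 1 symbol and 1814 with several, and 16010 are not listed. Each of 22180 genes took its single-symbol probe with the highest mean. The populations were compared with limma 3.58.1 (R 4.3.3), using lmFit and eBayes. P-values were two-sided, adjusted by Benjamini-Hochberg across the whole table, and called below 0.05. The code was tested on simulated data. Alternatives left out each array, used the replicate number as a block, the mean of probes, quantile normalization, only the 13429 genes above the median, an intensity trend with robust moderation, array weights, or no moderation. The fit without both replicate 3 arrays was chosen after seeing the data.

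Values on all arrays are given for members that passed, members with a difference of at least 1, and Itgb1, Itgb2, Itga4, Itga6, Tln1, Fermt2 and Fermt3. Itgam, Itga8 and Pxn fall outside this rule, and their values were added with the results known. Of the lists of other adhesion genes and of ligands, the genes that passed are named. Members and lists were chosen with earlier results of these data known. Promoters are from RefSeq, on GRCm38.p6. Same-numbered arrays deviated together with r = 0.0985, 0.0806 and 0.167, which are not all above 0.1, so the numbers were not taken as pairs. Arrays of different number had lower r, from -0.111 to 0.0301. Deviations from a population mean cancel out over its arrays, so these lower r follow in part from the same-number r. They add no separate evidence, and the values leave only a hint of pairing. The choice matters, since with the number as a block 5 members were higher and 0 lower.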

Additional observations from a re-analysis of the deposited data

How the results depend on the processing

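Itga1, Itga9 and Fermt2 passed in all 6 fits that left out 1 array and in all 7 other alternatives. With the replicate number as a block, members higher numbered 5 and members lower 0, and genes higher 412 and genes lower 168. Itga4, Itga6, Itgav, Itgb1, Fermt3 and Vcl lost their calls there. The labels do not say that numbers pair samples, but the deviations of arrays from their population means correlate best with those of the same number in the other population, as a hint from the data. Without moderation, 3 members were higher and 0 lower, of 145 genes higher and 35 lower. With both replicate 3 arrays left out, 3 members were higher, against 1.98% of all genes. Leaving out 1 array at a time gave 319 to 668 genes higher, 111 to 517 genes lower, 3 to 8 members higher and 0 to 3 members lower. The difference of Itgam (log2) turned to -0.042 with array weights and -0.68 without both replicate 3 arrays, and ran from -1.15 to 1.04 when 1 array was left out. That of Itgb2 ran from -0.17 to 1.47. Fits on fewer arrays have fewer degrees of freedom; otherwise the cause was not tested. Without detection calls, levels near the array medians cannot be told from background.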

Other observations

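Thrombospondin-1, an adhesive matrix protein of platelets and other cells, stood apart in both replicate 3 arrays, and it was picked out after its values were seen. Thbs1 measured 3.63, 3.88 and 8.65 in YFP-positive arrays, against 3.60, 3.78 and 7.30 in YFP-negative arrays. Fn1, the fibronectin gene, had its highest level in the same arrays, at 4.47, 5.57 and 7.59 in YFP-positive and 3.87, 3.58 and 5.70 in YFP-negative arrays. Neither passed limma's test (adjusted p = 0.931 and 0.508).

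Rsu1 was among the brightest genes of the adhesion list in both populations, at 10.5, 10.3 and 10.3 in YFP-positive arrays, against 9.32, 9.68 and 9.41 in YFP-negative arrays. Tgfb1i1 lay at 5.79, 5.41 and 4.93 in YFP-positive arrays and close to the array medians, at 3.60, 3.56 and 3.62, in YFP-negative arrays. Bcar1 had 6.91, 7.43 and 6.64 in YFP-positive arrays, against 4.40, 4.22 and 4.28 in YFP-negative arrays. For each of these 3 genes the populations did not overlap.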
